A study of Mus musculus with 2 samples.

Results

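The Sox13 locus was described by the TCF1 intervals that overlapped chr1:135200000-135400000 of the mm9 genome, a window of 200 kb given for the gene. It held 29 of the 104683 intervals listed for the library. The intervals came from 1 chromatin immunoprecipitation (ChIP) library made with an antibody against TCF1. The cells were γδ T cells sorted from mouse thymus as CD24+ with low or no CFP, and they came from C57BL/6 animals of the genotype TCRbeta KO.Sox13tg+.Sox13 ECFP KI/+. All cells of the series therefore lacked TCRβ, carried a Sox13 transgene and held an ECFP cassette in 1 Sox13 allele. The labels name neither the promoter nor the extent or copy number of the transgene. The second library of the series, input chromatin from cells of the same genotype, was not analysed here, and there was no library without the transgene. With 1 library there was no replicate, so values are given without a test between conditions.

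SOX13 is an HMG-box transcription factor of the SoxD group that is expressed in developing γδ T cells. The cells used here were sorted for low or no CFP, which the cassette in Sox13 encodes, and their Sox13 expression was not measured. TCF1, encoded by Tcf7, is the HMG-box factor through which the Wnt pathway and other inputs act in thymocytes. SOX13 is known to bind TCF1 and to restrain Wnt and TCF signalling. In these cells the Sox13 gene is thus at once a locus where TCF1 could bind, the site of the reporter and the source of the transgene's sequence.

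Each interval has 1 deposited score, and what it measures is not stated. Because the score grew with width across the list (Spearman rho 0.80, across intervals that share 1 library), the score per 50 bp of width was also computed and is called height. An interval was called very high in the upper 0.1% of the list by height (above 132.8) and high in the upper 1% (above 77.9). The intervals were not placed on exons, introns or promoters, since no mm9 annotation was used here, and the place of the window was taken as given. In the RefSeq gene table for GRCm38.p6, the protein-coding neighbours of Sox13 are Etnk2, an ethanolamine kinase gene, and then Ren1, the renin gene, on the side of lower coordinates. On the other side they are Snrpe, which encodes a spliceosomal protein, and Zc3h11a. The locus here means the whole window, and which of its intervals lie at Sox13 rather than at a neighbour was not determined. Sox13 lies on the minus strand in that build, so its transcription starts at its high-coordinate end and its last exon is at the low-coordinate end.

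The 1 piece of Sox13 sequence shown is the place of the TCF core in the 250 bases before the start listed by RefSeq. The core of TCF and LEF sites, CTTTG on the listed strand or CAAAG on the other, occurred 1 time there. The 29 bases around it, on the minus strand at chr1:133424266-133424294 of GRCm38.p6, are shown with the core in capitals. Its first base lay 70 bases before the start.
Sox13 upstream site: cggaggccctggCTTTGgacccagcgggc
The same core was found in 48.6% of the 32851 upstream sequences of this length in the table, so a single match is common. The SOX core, ACAAT or ATTGT on the other strand, had 0 matches there and was present in 27.7% of the sequences. These positions belong to another build than the intervals, and no interval was set against this sequence.

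The summed score of the window was concentrated in a short stretch. Of the 29 intervals, 9 lay between positions 135278601 and 135290100, a span of 11.5 kb that makes up 5.75% of the window. They held 69.2% of the window's summed score, and all 3 very high intervals were among them. This stretch was delimited after the values were seen, as the chain of intervals around the very high ones with gaps of at most 2000 bp, and its values are given as a description. The gaps to the next intervals on its lower and higher sides were 5950 and 3950 bp.

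The highest interval of the locus ran from 135279101 to 135280650. It was 1550 bp wide, scored 6359 at a height of 205, and held 33.8% of the window's summed score. It was 19th by score and 65th by height in the list. The second, from 135280851 to 135281250, began 200 bp further on, was 400 bp wide and scored 1550 at a height of 194. Both stood at least 6.13 times above the median height of the flanks, 31.6. The third very high interval, from 135283151 to 135283900, was 750 bp wide and scored 2079 at a height of 139, which was 4.38 times that median. Together the 3 covered 2700 bp, or 1.35% of the window, and held 53.2% of its summed score. Very high intervals were 0.100% of the whole list, against 3 of 29 (10.3%) in the window and 0 of 81 in the flanks.

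The other 6 intervals of the stretch were lower and uneven. The first, from 135278601 to 135278700, preceded the highest interval by 400 bp, was 100 bp wide and had a height of 25.6, below the flank median. Between the second and the third very high interval lay one from 135282601 to 135283000, which was 400 bp wide and scored 556 at a height of 69.5. The height thus fell and rose again within the 4.8 kb from the first to the last very high interval. Beyond them, the interval from 135284901 to 135285200 had a height of 44.7, and the one from 135287251 to 135287500 had 53.6. Between them, the 500-bp interval from 135285501 to 135286000 scored 718 at a height of 71.8. The last, from 135289451 to 135290100, was 650 bp wide with a score of 1154 and reached 88.8, the highest value of the locus outside the very high class. The series of heights along the stretch therefore alternated and did not decline steadily with distance from the highest interval. Gaps between the 9 intervals ran from 150 to 1950 bp, with a median of 700 bp, and the intervals covered 42.6% of the stretch.

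**Figure D1:**
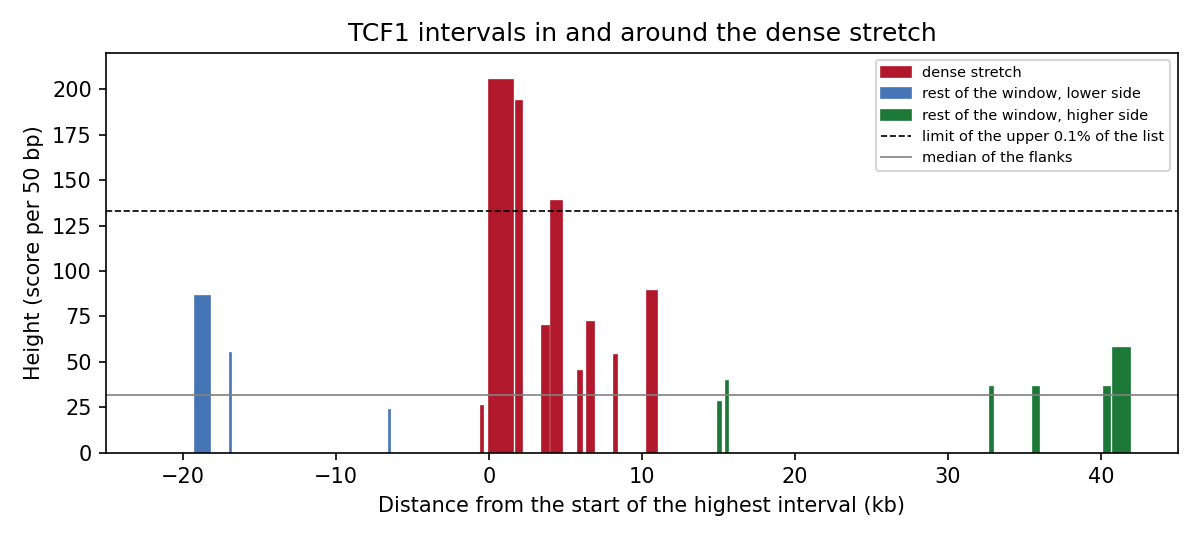
Height in score per 50 bp (y axis) against distance from the start of the highest interval in kb (x axis, lower coordinates to the left), each bar drawn at its true width. Of the 9 red bars of the dense stretch, 3 pass the limit of the upper 0.1% of the list (dashed line), and lower bars stand between and beyond them; the grey line is the flank median of 31.6.

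Of the 3 very high intervals, the third lay near the limit of 132.8, with a height of 139 that ranked 98th of the 105 in the list. The next interval of the window had a height of 88.8. In the whole list, the intervals just above and just below the limit had heights of 133.3 and 132.5, both 200 bp wide.

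Outside the dense stretch the window held 20 intervals, and their heights were near those of the flanks. On the lower side were 11 intervals, with a median height of 33.6 (95% order-statistic interval 22.1 to 54.8). The one that stood out ran from 135259901 to 135260900, was 1000 bp wide and scored 1729 at a height of 86.4, so it was in the high class. A 100-bp interval with a height of 54.8 followed 1250 bp further on, from 135262151 to 135262250. The lowest interval of the locus was on this side as well, from 135246701 to 135246800, which was 100 bp wide and scored 29.5 at a height of 14.8. The other 8 ran from 22.1 to 53.0, and the highest of these was the 350-bp interval starting at 135225901.

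On the higher side of the stretch, towards the Sox13 start as its strand in GRCm38.p6 sets it, were 9 intervals with a median height of 36.2 (28.0 to 39.9). None of the 9 was high or very high. Their highest, from 135319901 to 135321000, was 1100 bp wide and scored 1270 at a height of 57.7. It came 200 bp after a 400-bp interval, from 135319301 to 135319700, with a height of 36.1. The 4 intervals nearest to the stretch on this side, between 135294051 and 135315050, had heights of 28.0 to 39.6. The last 3 intervals of the window lay apart, after gaps of 20100, 41400 and 6750 bp, with heights of 39.8, 39.9 and 25.6.

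The window also held wide intervals, a trait not separate from height, since height rose with width across the list (Spearman rho 0.40). Of the 29 intervals, 3 were at least 1 kb wide, the highest one and those starting at 135259901 and 135319901. In the flanks 0 of 81 were that wide, and the widest was 800 bp. Across the list 0.969% of intervals reached 1 kb, so 0 of 81 in the flanks is near the share of the list. The 3 wide intervals differed in height by more than their widths, at 205, 86.4 and 57.7.

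Since broad intervals in the list also tend to be higher, each member was set beside all intervals of exactly its width. The highest interval was the 1st by height of 21 intervals of 1550 bp, at 3.54 times their median of 58.0. The 400-bp very high interval was 2nd of 4211, at 4.44 times their median of 43.7. The 750-bp one was 4th of 601, at 2.60 times their median of 53.3. These 3 were picked by height, so high ranks by height among intervals of their width follow largely from that choice and add no support. The interval starting at 135259901 was 5th of 207, and the last of the dense stretch was 16th of 981. The 1100-bp interval starting at 135319901, in contrast, was 50th of 137, at 1.07 times the median of its width. All 9 intervals of the dense stretch lay above the median of their width, which the choice by height fixed for the 3 very high ones. The remaining 6 did so as well, although the first exceeded it by a factor of only 1.03. Outside the stretch, 11 of the other 20 members lay above it, as did 50 of the 81 flank intervals and 49.9% of the list.

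**Figure D2:**
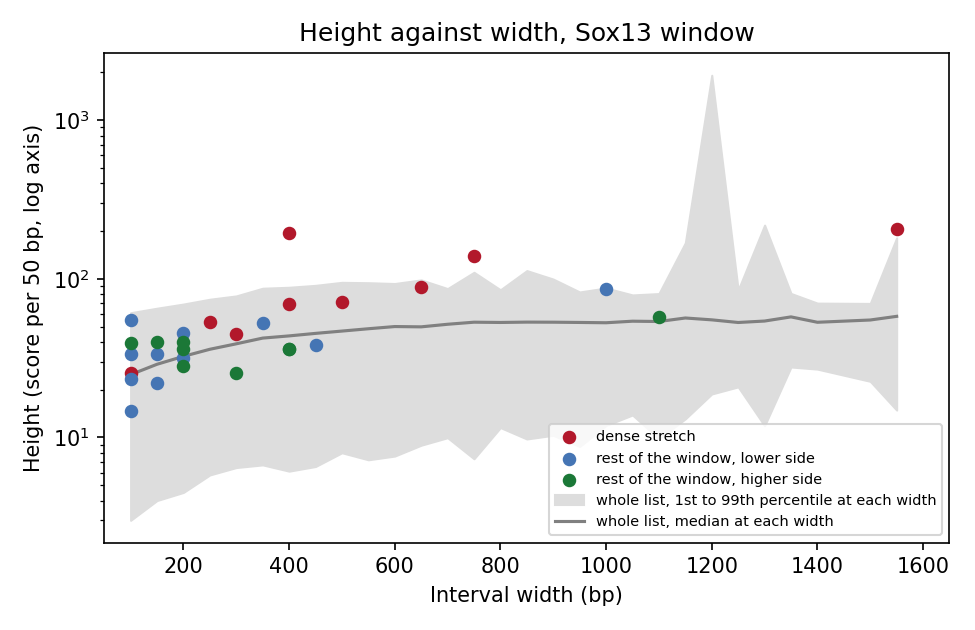
Height in score per 50 bp (y axis, log scale) against interval width in bp (x axis) for the 29 intervals of the Sox13 window. The grey band spans the 1st to the 99th percentile and the grey line the median of all listed intervals at each width with at least 20 intervals. The 3 very high red points of the dense stretch lie above the band, and the other points lie within it. At 1550 bp the list has 21 intervals, so the highest of them lies above the band by construction.

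The window as a whole held more intervals than its surroundings. Its density was 145 per Mb (95% Poisson interval 97.1 to 208), against 81.0 per Mb (64.3 to 101) in the flanks of 500 kb to each side. The ratio was 1.79 (exact conditional interval 1.13 to 2.77, for counting error only and treating intervals as independent). The flanks were unequal, with 51 intervals in the lower one and 30 in the higher one. Their densities of 102 and 60 per Mb were both above the 30.2 per Mb of chromosome 1 from its first to its last interval. Against the lower flank alone the ratio was 1.42 (0.869 to 2.29), so the window did not differ from that flank beyond counting error. Without the dense stretch, the remaining 189 kb held 106 per Mb and the ratio to both flanks was 1.31 (0.760 to 2.16), an interval that includes 1.

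The typical height of the window differed little from that of the flanks. The median was 39.8 (33.6 to 54.8) in the window and 31.6 (29.9 to 36.8) in the flanks, a ratio of 1.26, and these ranges overlap. The window's range divided by the flank median was 1.06 to 1.73, which leaves out the error of the flank median. Without the dense stretch the median of the window was 36.2 (31.6 to 39.9). The upper ends were further apart than the medians. The 90th percentile of height was 98.8 in the window and 53.7 in the flanks, and the maximum was 205 in the window and 83.2 in the flanks. High intervals numbered 5 of 29 in the window and 1 of 81 in the flanks, beside 1.00% of the list. The summed score per kb was 94.0 in the window and 14.1 in the flanks, a ratio of 6.64. It was 2.17 without the dense stretch. Intervals covered 5.42% of the window and 1.76% of the flanks, so a larger listed length and greater heights both entered the first ratio.

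**Figure D3:**
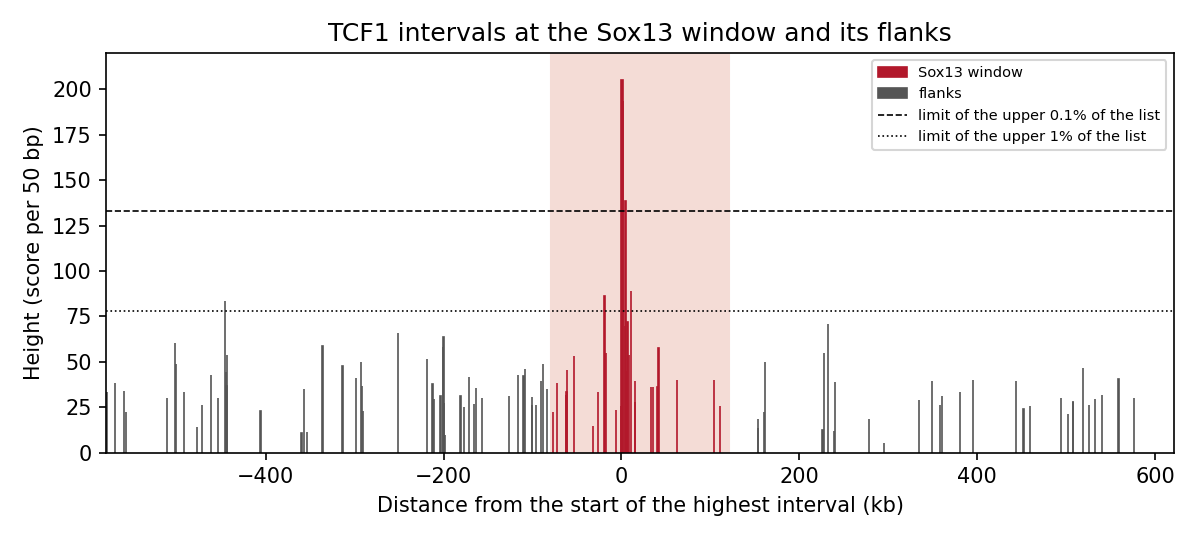
Height in score per 50 bp (y axis) of the 29 intervals of the Sox13 window (red, shaded) and of the 81 flank intervals (grey) against distance from the start of the highest interval in kb (x axis). The intervals in the upper 0.1% of the list (above the dashed line) lie at 1 place, and 1 grey bar, at 83.2, passes the limit of the upper 1% (dotted).

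Among 12352 windows of 200 kb on a fixed grid that held at least 1 interval, the Sox13 window ranked 580th by number of intervals and 32nd by summed score. On chromosome 1, with 908 such windows, it was 7th and 2nd. It was 1 of 5 windows with at least 3 very high intervals and 1 of 5 with at least 5 high ones, and on chromosome 1 it was the only one in both cases. Without its 3 very high intervals its summed score of 8803 would rank 321st, and without the dense stretch its 5788 would rank 775th. Of the other windows, 397 held a similar number of intervals, 25 to 33, with a median summed score of 6326. The Sox13 window, at 18792, had 2.97 times that median, and 1 of the 397 had as much. Without the very high intervals, 36 of the 397 (9.07%) had at least as much. These ranks place the window in the list and are not a test.

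**Figure D4:**
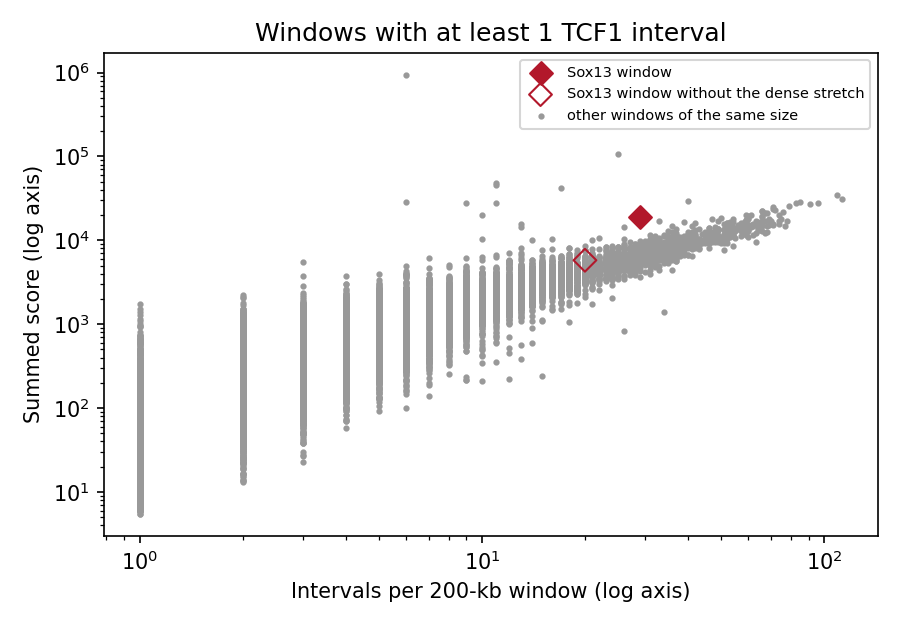
Summed score (y axis, log scale) against the number of intervals (x axis, log scale) for each 200-kb window with at least 1 interval. The Sox13 window (filled diamond, 29 intervals, 18792) lies above most windows with as many intervals, and without the dense stretch (open diamond, 20 intervals, 5788) it lies within the cloud.

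The very high intervals of Sox13 were set beside the others of that class. The other 102 very high intervals of the list had a median height of 273, with 133 to 8712 as the range, against 139, 194 and 205 at Sox13. Their median width was 450 bp, against 750 bp at Sox13. Of the 102, 1 was at least 1550 bp wide, 14 were at least 750 bp wide and 55 were at least 400 bp wide, the widths of the Sox13 ones. The 400-bp interval was thus narrower than the median of the others. Across the list there were 104515 sets of 9 consecutive intervals, which overlap one another. Of these, 1422 (1.36%) spanned no more than the 11.5 kb of the dense stretch, and 111 (0.106%) had at least its summed score of 13004. The dense stretch itself was the only set to meet both limits, which were taken from its own values.

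The transgene adds copies of Sox13 sequence to every cell of the library, and copied sequence can raise the signal at the endogenous positions whether or not TCF1 is bound there. Extra copies and TCF1 binding cannot be told apart here, because every cell carried the transgene and the input library was not analysed. The heights did not settle it. They ran from 25.6 to 205 within the dense stretch, an 8.01-fold range between a 100-bp and a 1550-bp interval. Against the median of intervals of the same width, the heights of the stretch ran from 1.03 to 4.44 times. On the lower side of the stretch the 11 intervals had heights of 14.8 to 86.4, and on the higher side the 9 intervals had 25.6 to 57.7, against 5.50 to 83.2 in the flanks. The 1000-bp interval on the lower side, at 86.4, was above every flank interval. Which of the intervals hold exon sequence, and which lie at Sox13 rather than at a neighbouring gene, was not analysed here. The ECFP cassette was present in the same cells, and its part in these values was not tested.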

How the data were processed

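ChIP was done on 1000000 sorted cells crosslinked with 1% formaldehyde, and the DNA was amplified over 17 PCR cycles and selected at 300 to 500 bp, per the labels' protocols. The deposited file lists intervals with 1 score each. Positions refer to mm9, which the submitters' processing notes name. How reads were aligned, how intervals were called and scored, and whether the input entered, is not given in the sources used here. No replicates were pooled, the list being of 1 library. The read depth is unknown, so no read-based error is given. Starts fell on a 50-bp grid and ends 1 bp before it in 100% of cases. Ends were taken as inclusive, and positions count from 1.

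An interval belonged to the window on any overlap. Density ratios have exact conditional (Clopper-Pearson) intervals and medians have order-statistic intervals, all at 95%. Every interval of the window is described, with full values for the very high ones, the 5 highest others and the lowest. The window and the lists were chosen with earlier results of these data known. The density ratio and the median height ratio were tested on simulated lists with known ratios and independently placed intervals. Each setting was drawn a single time, at a higher density than that of the flanks. The tolerance for the height ratio was wider than the excess reported here, so the check could not judge a ratio that small. The other measures were not simulated. Sequences are from RefSeq (GRCm38.p6). The tools were scipy 1.17.1, pandas 2.3.3 and numpy 2.4.6 under Python 3.11.15, with matplotlib 3.10.9 for figures.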

Additional observations from a re-analysis of the deposited data

How the results depend on the processing

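Over 28 alternatives, 22 values were close to the reported one and 6 moved, and none changed direction. Close meant within 1.5 times for counts and the share of score, and inside the 95% interval of the main value for ratios. The 29 intervals of the window became 18 in the upper 50% by score and 8 in the upper 10%, and the density ratio of 1.79 became 2.81 and 8 in these sets. Fewer intervals remain there by construction, and the cause of the larger ratios was not tested. The 3 very high intervals became 5 in the upper 1% by height and 1 in the upper 0.1% by score. The other density ratios ran from 1.31, without the dense stretch (chosen after the data were seen), to 2.42, against the higher flank alone. The interval of the ratio included 1 with flanks of 250 kb (1.61), against the lower flank (1.42), after joining intervals within 1 kb (1.47), without the very high run (1.60) and without the dense stretch. The median height ratio ran from 1.14 to 1.35 over the alternatives that still compared median heights. Medians of score and means of height each gave 1.65, and medians of width gave 1.25. The very high intervals held 53.2% of the window's summed score, and the 5 intervals in the upper 1% by height held 68.5%. Of the score in excess of the flank median, the very high intervals held 68.6%. No paired analysis was possible because the series has a single ChIP library. Since the read depth is unknown, low or unlisted places say little about the lack of TCF1.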
